A study of Homo sapiens with 2 samples.

Results

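The RNAs described here are the rows of the count table named after another gene with the suffix -AS and a number. They were followed in HUH7 cells, a human hepatocellular carcinoma line. Of 56303 rows, 1162 carried such a name. EPB41L4A-AS1 and OIP5-AS1 were set aside by the rule. Of the others, 365 had at least 50 reads in both libraries together and were kept, whatever their ratio. A total of 795 rows had fewer, among them 377 without a read. Just inside this minimum stood RAET1E-AS1, TMEM212-AS1 and TONSL-AS1 with 50 reads each, and just outside stood HLA-F-AS1, CNOT10-AS1 and PCOLCE-AS1 with 49.

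The study asked whether ZMAT2, a zinc finger protein of the spliceosome, affects liver cancer progression through splicing. RNA from a HUH7 lysate was sequenced in 2 libraries of 1 sample each. The ZMAT2 IP library held RNA precipitated with an antibody against ZMAT2 from 80% of the lysate, and the Input library held RNA of 10% of the lysate set aside. No treatment, knockdown or time course distinguished the groups, and a rabbit IgG control was not analysed here. HUH7 is 1 cell line, so the libraries describe no other liver cells. Genes held 25047635 IP and 23485789 Input reads. ALB stood at 4854 and 6996 CPM (reads scaled to the TMM-normalised library) and AFP at 1384 and 2429 CPM, while COL1A1, DCN, CDH5, KDR and CD3E had no read. Other markers of the immune, stromal and endothelial lists were present: LYZ stood at 248.9 and 362.8 CPM, and PECAM1 had 252 and 341 reads, CD68 159 and 174, PDGFRB 75 and 57 and COL1A2 46 and 54.

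Antisense transcripts are made from the strand opposite a gene. Some start beside the promoter of that gene and run away from it, some run into its far end, and others lie within it. Such RNAs can affect the sense gene in cis through transcription or base pairing, and some are known to act as independent noncoding RNAs. A name with -AS records only this position. The name before the suffix is called the sense gene here.

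Positions and promoter sequences show how closely a pair can be packed. The 4 antisense-named genes below shared no exon base with their sense gene and had promoter windows that overlapped the sense promoter. They differed from the sense gene in the IP, as described later. Each window is the RefSeq one (GRCh38.p14), from 250 bases before to 50 bases after the start, 5′ to 3′ on the strand of the named gene. Capitals mark the bases that also lie in the window of the sense gene. ZNF528-AS1 was chosen after its value was seen.
CAPN10-AS1 (now CAPN10-DT, chr2:240586267-240586566, minus strand): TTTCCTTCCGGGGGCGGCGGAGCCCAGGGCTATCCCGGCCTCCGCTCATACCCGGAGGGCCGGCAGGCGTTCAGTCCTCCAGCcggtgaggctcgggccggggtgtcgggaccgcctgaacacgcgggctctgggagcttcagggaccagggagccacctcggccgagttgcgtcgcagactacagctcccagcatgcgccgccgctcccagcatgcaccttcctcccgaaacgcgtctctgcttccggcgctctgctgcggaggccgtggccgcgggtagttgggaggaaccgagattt
CAPN10 (chr2:240586484-240586783, plus strand): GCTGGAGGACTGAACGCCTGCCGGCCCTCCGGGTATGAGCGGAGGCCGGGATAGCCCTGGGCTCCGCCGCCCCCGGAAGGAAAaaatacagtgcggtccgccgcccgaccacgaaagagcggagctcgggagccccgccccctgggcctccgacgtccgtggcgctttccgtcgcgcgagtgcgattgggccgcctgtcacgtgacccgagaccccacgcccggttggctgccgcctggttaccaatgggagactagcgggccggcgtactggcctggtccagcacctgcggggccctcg
SCAMP1-AS1 (chr5:78360492-78360791, minus strand): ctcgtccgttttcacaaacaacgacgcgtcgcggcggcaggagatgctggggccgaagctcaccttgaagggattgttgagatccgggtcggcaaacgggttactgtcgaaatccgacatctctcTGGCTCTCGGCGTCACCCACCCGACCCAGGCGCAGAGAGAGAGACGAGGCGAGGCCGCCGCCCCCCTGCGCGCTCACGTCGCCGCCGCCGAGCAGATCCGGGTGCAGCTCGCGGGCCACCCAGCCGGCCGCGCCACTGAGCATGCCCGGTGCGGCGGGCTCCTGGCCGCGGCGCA
CEBPA-AS1 (now CEBPA-DT, chr19:33302571-33302870, plus strand): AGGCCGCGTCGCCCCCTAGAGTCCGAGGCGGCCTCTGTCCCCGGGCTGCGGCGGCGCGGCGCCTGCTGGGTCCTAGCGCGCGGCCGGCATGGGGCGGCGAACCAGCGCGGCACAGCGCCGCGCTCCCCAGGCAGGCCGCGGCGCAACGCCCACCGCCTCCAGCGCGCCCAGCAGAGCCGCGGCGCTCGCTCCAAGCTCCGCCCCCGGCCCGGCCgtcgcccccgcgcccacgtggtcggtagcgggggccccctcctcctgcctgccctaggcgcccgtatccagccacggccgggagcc
ZNF528-AS1 (chr19:52397708-52398007, minus strand): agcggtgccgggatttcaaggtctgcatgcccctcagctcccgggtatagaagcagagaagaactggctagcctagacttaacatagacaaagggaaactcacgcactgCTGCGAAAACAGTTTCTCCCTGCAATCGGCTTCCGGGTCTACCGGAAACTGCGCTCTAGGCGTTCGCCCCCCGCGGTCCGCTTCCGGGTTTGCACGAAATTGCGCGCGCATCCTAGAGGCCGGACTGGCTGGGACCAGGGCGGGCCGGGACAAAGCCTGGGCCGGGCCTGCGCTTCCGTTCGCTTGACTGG

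The capitals covered 83 of 300 bases in CAPN10-AS1, and the capitals of CAPN10 are the same bases read on the other strand. They covered 175 bases in SCAMP1-AS1, 214 in CEBPA-AS1 and 191 in ZNF528-AS1. The RefSeq start of CAPN10-AS1 lay 383 bases from the start in the count table, and those of the other 3 lay 9 to 36 bases away. The windows held 32, 41, 47 and 26 CG dinucleotides for CAPN10-AS1, SCAMP1-AS1, CEBPA-AS1 and ZNF528-AS1, against a median of 14 over 34943 RefSeq promoter windows. A window within 1000 bases of the deposited start was found for 249 members, with a median of 21 CG dinucleotides. For the 48 of them whose window overlapped that of the sense gene the median was 32.5. The motif GGGCGG, on either strand, was present in 53.4% of the 249 windows, in 77.1% of the 48 and in 44.9% of all RefSeq windows. CCAAT, on either strand, was present in 37.8%, 25% and 34.6%. TATAAA, on either strand, was present in 6.83%, 4.17% and 11.6%. Each motif was searched by itself, whatever its overlap with another. A match in these windows is a description of letters and shows no factor bound.

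Most of the 365 antisense-named RNAs lay within 2-fold between IP and Input. The log2 ratio of IP over Input, scaled with TMM so that the bulk of genes lies near 0, had a median of -0.03 over members and of 0.01 over all 15421 genes with at least 50 reads. The quartiles of the members were -0.47 and 0.45, and those of all genes -0.40 and 0.46. Higher or lower was called for a change of 2-fold or more whose 95% counting interval left out 0. With 1 library a group there is no replicate check, and the calls compare these 2 libraries, not conditions. By this rule 19 members were called higher (5.21%), against 6.54% of all genes, and 21 were called lower (5.75%), against 5.04% of all genes. Both shares were near the background, so the counts show nothing particular to the class. Of 489 antisense-named rows with at least 20 reads, 34 were called higher, against 7.41% of all genes with that many, and 46 lower, against 6.97%. At this minimum the share of antisense-named rows called higher lay below that of all genes, and the share called lower lay above it. This was not tested. Within 2-fold lay 325 members (89.0%), and 88.4% of all genes did.

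**Figure D1:**
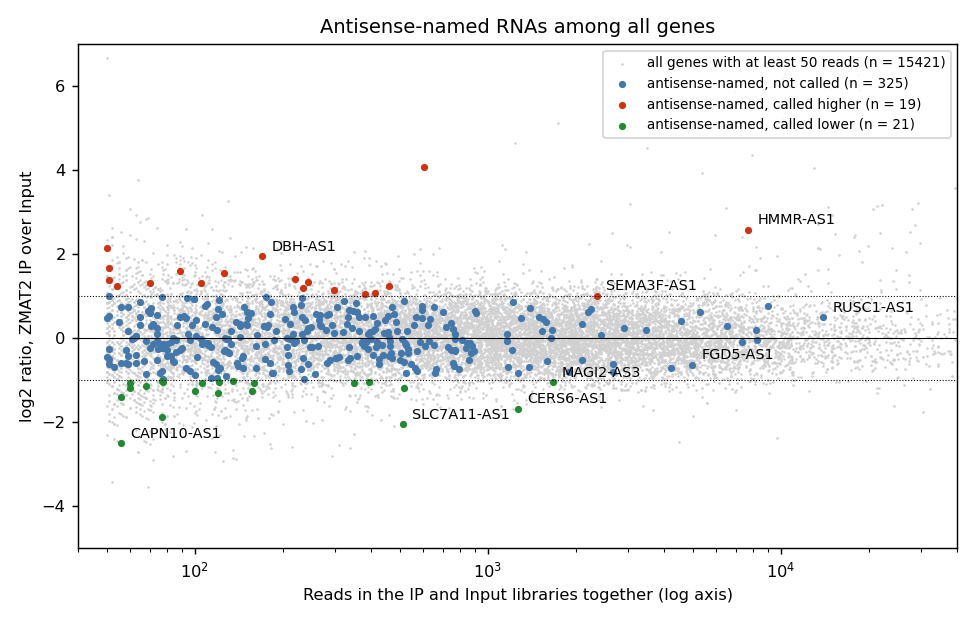
Log2 ratio of ZMAT2 IP over Input (vertical axis) against reads in both libraries together (horizontal log axis) for 365 antisense-named RNAs (coloured points) and all 15421 genes with at least 50 reads (grey; genes past the end of the axis are not drawn). Dotted lines mark 2-fold; 19 members lie above as called higher, 21 below as called lower, and HMMR-AS1 stands apart from other members of similar depth.

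The depth of members was modest. The median was 231 reads in both libraries together. There were 89 members under 100 reads, 236 with 100 or more but under 1000, and 40 with 1000 or more. Of the 40 called members, 14 had fewer than 100 reads. Together the members took 114724 reads (0.458%) of the IP and 105403 (0.449%) of Input. The median level was 2.02 RPKM, reads scaled to exon length and depth, in the IP and 2.0 in Input. No member was without a read in either library. Among genes with 1 to 6 reads, 77.9% of IP counts and 67.1% of Input counts were even numbers, so the counts may hold both mates of a pair, and intervals on reads would then be too narrow. Taking 2 reads as 1, the intervals gave 19 members called higher and 20 lower.

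Other noncoding classes gave the following counts with the same minimum of reads. Of 100 genes with a LINC name (intergenic noncoding RNAs), 4 were called higher and 9 lower, with a median log2 ratio of -0.22. Of 252 other genes that RefSeq lists as long noncoding RNA (lncRNA), 7 were higher (2.78%) and 23 lower (9.13%), with a median of -0.15. The 6 genes with an intronic-transcript name (-IT) had a median of -1.12 and 3 called lower, and the 3 with an overlapping-transcript name (-OT) a median of -0.60 and 1 called lower. The 333 sense genes with at least 50 reads had a median of -0.05, with 20 called higher and 15 lower. No test of a difference between these classes was made.

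Most members share exon bases with another gene, and without strand the reads of both cannot be told apart. At least 5% of the exon bases were shared with another gene, on either strand, for 264 members (72.3%), against 38.4% of all genes with at least 50 reads. Only 54 members (14.8%) shared no exon base, against 45.1% of all genes. Of the members, 281 shared bases with the sense gene itself, and 35 shared bases with a gene on their own strand. The libraries came from a stranded kit, but whether strand was used in counting is not given in the sources used here. Of the called members, 16 of the 19 higher and 12 of the 21 lower ones shared at least 5% of their bases, and 2 higher and 4 lower ones shared none. These 6, listed after their values were seen where not described further on, were FOXD2-AS1 and ZNF528-AS1 among the higher and CAPN10-AS1, WDFY3-AS2, SEPT7-AS1 and PARD6G-AS1 among the lower.

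A row for the sense gene was present for 359 members, which named 353 genes. Of these, 20 members had a sense gene with fewer than 50 reads, which left 339 pairs. In all 339 the annotated strands were opposite. The difference between the antisense and the sense log2 ratio had a median of 0.03 and ran from -3.33 to 1.96. The exact 95% counting interval of the difference excluded 0 for 146 pairs (43.1%), with the antisense RNA higher in 79 and lower in 67. Counted in pairs of reads it excluded 0 for 95. Where exon bases are shared, the 2 counts can hold the same reads and this interval is not one of independent counts. The share among pairs of genes not named after each other was not computed. Nothing particular to antisense pairs is therefore read from how many intervals excluded 0, here or in the classes of pairs below.

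The rank correlation between antisense and sense ratios was higher in classes of pairs that shared more exon bases. With no shared base, the 69 pairs had a rank correlation (Spearman rho) of -0.11 across pairs and a Pearson r of -0.13, and the median absolute difference was 0.65. With over 0 to 10% of the antisense exon bases shared, rho was 0.49 and r 0.48 over 103 pairs, with a median absolute difference of 0.47. With over 10 to 25%, rho was 0.57 and r 0.66 over 87 pairs, with a difference of 0.34. With over 25 to 50%, rho was 0.62 and r 0.59 over 54 pairs, with a difference of 0.18. With over 50%, rho was 0.80 and r 0.81 over 26 pairs, with a difference of 0.25. The rank correlation stepped up from class to class, while the absolute difference was lowest in the class of over 25 to 50%. These values are descriptions across genes of the same 2 libraries, in which paired genes can share reads.

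**Figure D2:**
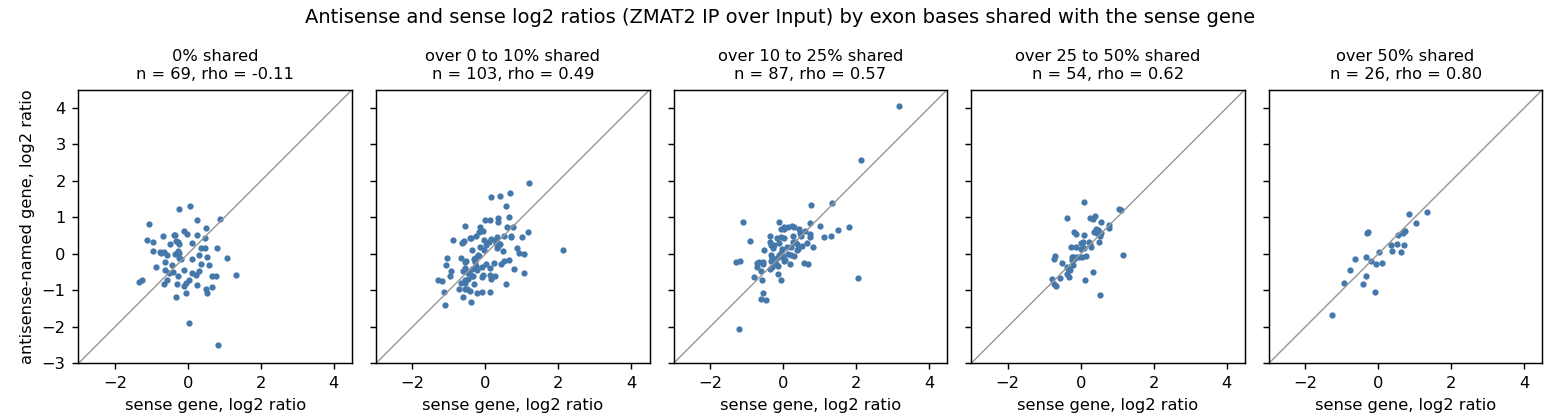
Log2 ratio (ZMAT2 IP over Input) of the antisense-named gene (vertical axis) against that of its sense gene (horizontal axis), in 5 panels by the share of antisense exon bases that lie in exons of the sense gene; each point is a pair and the line marks equality. With no shared base the points show no upward slope (rho -0.11, n = 69), and with over 50% shared they lie along the line (rho 0.80, n = 26).

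Depth moved with this pattern. The median reads of the antisense gene were 128 in the class without shared bases, 218, 279 and 275.5 in the next 3 classes and 326.5 in the class of over 50%. With at least 200 reads in each gene, a choice made after seeing the data, rho was 0.21 over 25 pairs without a shared base. It was then 0.40, 0.64 and 0.86 over 51, 49 and 33 pairs, and 0.84 over 18 pairs with over 50% shared. The median absolute difference in these deeper pairs was 0.52 without shared bases and 0.22 with over 50% shared. A difference of at least 2-fold whose interval excluded 0 was found in 18 of 69 pairs without shared bases (26.1%) and in 0 of 26 with over 50%. With at least 200 reads in each gene it was found in 4 of 25 (16%) and in 0 of 18.

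The reads that the sense gene could lend were estimated by spreading its reads evenly over its exons. Of 270 pairs with shared bases, the antisense gene had fewer reads than this estimate in 36. The estimate came to a median of 13.2% of the antisense reads in the class of over 0 to 10%, 26.4% in that of over 10 to 25%, 41.2% in that of over 25 to 50% and 53.7% above 50%. Reads are rarely even along an mRNA, so the estimate is only a rough scale.

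**Figure D3:**
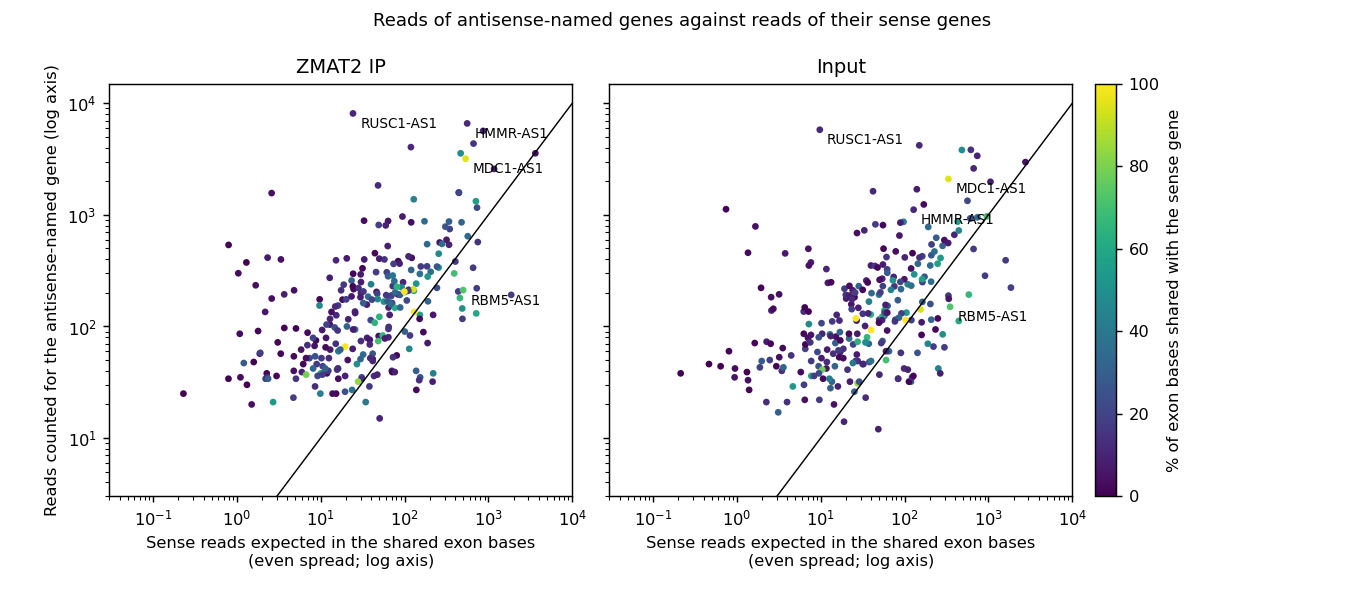
Reads counted for each of 270 antisense-named genes with shared bases (vertical log axis) against the sense reads that an even spread would put in the shared exon bases (horizontal log axis), in the IP (left) and in Input (right); the line marks equality, colour gives the percentage of exon bases shared, and each name stands to the lower right of its point. Most points lie above the line, and 36 pairs fall below it over both libraries together.

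Antisense genes with the largest shares of their bases in exons of the sense gene come first. C6orf47-AS1, at 31658329 to 31660721 on chromosome 6, shared 100% of its bases with C6orf47. It held 135 IP and 114 Input reads, and an even spread of the C6orf47 reads would give 131.1 and 102.8. Its log2 ratio was 0.26 (95% interval -0.11 to 0.63) and that of C6orf47, with 482 and 378 reads, was 0.36 (0.17 to 0.56). The difference of -0.11 had an interval of -0.53 to 0.32. ARSD-AS1 also lay wholly in exons, of the arylsulfatase gene ARSD, and held 66 IP and 118 Input reads at a ratio of -0.82 (-1.28 to -0.38). An even spread of the ARSD reads would give 19.6 and 26.2, so the estimate was near the counts of C6orf47-AS1 and well below those of ARSD-AS1. ARSD stood at -0.41, and the interval of the difference, -0.97 to 0.12, included 0.

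ARAP1-AS1 shared 99.2% of its bases with ARAP1, which encodes a protein that activates the GTPase function of small G proteins. It held 205 IP and 93 Input reads, at a log2 ratio of 1.15 (0.79 to 1.52), and was called higher. ARAP1 had 2343 and 939 reads, for a ratio of 1.33 (1.22 to 1.44). The even spread of ARAP1 reads would give 99.6 and 39.9. The difference of -0.18 (-0.56 to 0.21) was within counting error. ARAP1-AS2, chosen after its value was seen, names the same sense gene and shares 10.03% of its bases. It had 37 and 14 reads, for a ratio of 1.38.

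MDC1-AS1 shared 94.99% of its bases with MDC1, a mediator of the DNA damage checkpoint. It held 3193 IP and 2101 Input reads, or 179.2 and 116.9 RPKM, while MDC1 stood at 31.6 and 19.5 RPKM. Their log2 ratios were 0.62 (0.54 to 0.70) and 0.69 (0.64 to 0.75). Per length the antisense row was thus the higher of the pair in both libraries, and the ratios differed by -0.08 (-0.18 to 0.02). RBM5-AS1, within the splicing regulator gene RBM5, shared 72.7%. It had 212 and 150 reads, fewer than the 500.0 and 349.0 of an even spread, and a ratio of 0.51 (0.20 to 0.82) beside 0.53 (0.47 to 0.59) for RBM5.

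ARMCX3-AS1 was an exception among these. It shared 93.9% of its bases with ARMCX3, which encodes a mitochondrial outer membrane protein, and held 215 IP and 142 Input reads. Its log2 ratio was 0.61 (0.30 to 0.93), while ARMCX3, with 1176 and 1431 reads, stood at -0.27 (-0.38 to -0.16). The difference of 0.88 (0.55 to 1.22) was beyond counting error even though nearly all bases were shared.

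Of the 8 most read members, all but HMMR-AS1 lay within 2-fold. RUSC1-AS1, at 155316863 to 155324176 on chromosome 1, held 8120 IP and 5800 Input reads, which gave a log2 ratio of 0.50 (0.45 to 0.55). RUSC1 itself had 331 and 133 reads, and its ratio was 1.32. The largest overlap of RUSC1-AS1, 19.7% of its bases, was with FDPS, the farnesyl diphosphate synthase gene of isoprenoid synthesis, which had 12256 and 8566 reads, for a ratio of 0.53. SPAG5-AS1, named after a spindle protein gene, had 5663 and 3387 reads, for a ratio of 0.75 (0.69 to 0.82). SPAG5 stood at 0.24 and KIAA0100, with which SPAG5-AS1 shares 21.0% of its bases, at 0.69. In both cases the antisense ratio lay nearer to that of another overlapping gene than to that of the named sense gene.

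LRRC75A-AS1 is now listed as SNHG29, a host gene of small nucleolar RNAs. It held 4052 IP and 4206 Input reads, which gave a log2 ratio of -0.04 (-0.10 to 0.02). NUCB1-AS1, inside the calcium-binding nucleobindin gene NUCB1, had 3567 and 3819 reads at -0.09 (-0.15 to -0.02). Its levels of 341.1 and 362.1 RPKM were among the highest per length of all members, and NUCB1 stood at 90.4 and 92.7 RPKM with a ratio of -0.04. PCBP1-AS1 surrounds PCBP1, the gene of a poly(C)-binding protein. It had 3569 and 2974 reads, and an even spread of the PCBP1 reads over the shared 4.66% would account for 98.0% of them. PCBP1 stood at 0.41 and LRRC75A at -0.32.

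Among the members called higher in the IP, HMMR-AS1 had the most reads, and its sense gene was called higher too. HMMR-AS1, at 163483065 to 163494058 on chromosome 5, overlaps the far end of HMMR, which encodes a hyaluronan receptor that also acts at the mitotic spindle. It held 6609 IP and 1114 Input reads, 286.0 and 47.8 RPKM, and a log2 ratio of 2.58 (2.49 to 2.67). HMMR had 19461 and 4470 reads, 204.8 and 46.6 RPKM, and a ratio of 2.13 (2.09 to 2.18). The shared 11.8% of its bases would hold 558.7 and 128.3 HMMR reads if these were spread evenly. The antisense ratio was higher by 0.45 (0.34 to 0.55).

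The other members called higher that are described here had fewer reads. DBH-AS1, inside the dopamine beta-hydroxylase gene DBH, held 135 IP and 35 Input reads, which gave a log2 ratio of 1.94 (1.41 to 2.54), beside 1.21 for DBH with 51 and 22 reads. RAET1E-AS1 had 41 and 9 reads, for a ratio of 2.14 (1.14 to 3.43), while RAET1E, an NKG2D ligand gene, had 0 and 2. Of the RAET1E-AS1 bases 35.7% lie in LRP11, which stood at -0.08. GCC2-AS1 had 94 and 32 reads at 1.55 (0.97 to 2.19), and the golgin gene GCC2, with 5223 and 4781 reads, stood at 0.14. TNRC6C-AS1 had 159 and 60 reads at 1.41 (0.98 to 1.87), while TNRC6C, of the GW182 family of microRNA silencing, stood at 0.08. RefSeq gives the name TNRC6C-AS1 as an older one of the protein-coding gene TMC6, and 30.5% of its bases were shared with a gene on its own strand.

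By the upper bound of the interval, members called lower were led by SLC7A11-AS1 and CERS6-AS1. SLC7A11-AS1, at 138057464 to 138178177 on chromosome 4, is antisense to the cystine and glutamate antiporter gene. It held 99 IP and 415 Input reads, which gave a log2 ratio of -2.05 (-2.39 to -1.74), with 14.04% of its bases shared with SLC7A11. SLC7A11 had 722 and 1680 reads and was also low, at -1.21 (-1.33 to -1.08). CERS6-AS1, antisense to the ceramide synthase gene CERS6, had 299 and 970 reads at -1.68 (-1.88 to -1.50). CERS6 had 945 and 2315 reads and stood at -1.28 (-1.39 to -1.17). CERS6-AS1 shares 69.7% of its bases with CERS6, and the even spread of CERS6 reads would give 391.4 and 958.8. In both pairs antisense and sense were low together, with the antisense RNA lower by 0.84 and 0.40 on the log2 scale.

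DSG2-AS1, antisense to the desmosomal cadherin gene DSG2, held 157 IP and 359 Input reads, which gave a log2 ratio of -1.18 (-1.46 to -0.91), beside -0.62 for DSG2. MAGI2-AS3 had 538 and 1125 reads at -1.05 (-1.20 to -0.90), with 1.48% of its bases shared, while the junction scaffold gene MAGI2, with 146 and 136 reads, stood at 0.11. WDFY3-AS2 and CAPN10-AS1 shared no exon base with any gene. WDFY3-AS2 had 16 and 61 reads at -1.89 (-2.81 to -1.11), and the autophagy scaffold gene WDFY3, with 1137 and 1120 reads, stood at 0.03. CAPN10-AS1, at 240582700 to 240586699 on chromosome 2, had 8 and 48 reads at -2.50 (-3.86 to -1.48). The calpain gene CAPN10 had 267 and 151 reads and stood at 0.83 (0.54 to 1.13).

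Of the 18 paired members called higher, 7 had a sense gene also called higher and 17 a sense ratio above 0. Of the 20 called lower, 4 (SLC7A11-AS1, CERS6-AS1, ARNTL2-AS1 and TM4SF1-AS1) had a sense gene also called lower and 15 a sense ratio below 0. Over the 333 sense genes, 20 (6.01%) were called higher and 15 lower, and in 232 of the 339 pairs both ratios had the same sign. No pair (0) was called in opposite directions, from which nothing is read, since few sense genes were called at all.

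The median absolute difference was largest among pairs whose starts face each other. In 42 pairs the genes did not overlap, and rho was 0.10 with a median absolute difference of 0.59. In 119 the heads overlapped, with rho 0.30 and a difference of 0.51. For antisense genes inside the sense gene (81 pairs) rho was 0.56 with a difference of 0.27, and for overlapping tails (84 pairs) it was 0.68 with 0.25. The 13 antisense genes around the sense gene had a rho of 0.31 and a difference of 0.51. The share of bases and the depth differed between arrangements too, and their part in these values was not tested. Median antisense reads were 135 for facing heads apart and 216 for overlapping heads. They were 233 inside the sense gene, 241 around it and 359.5 for overlapping tails. In 48 pairs the RefSeq promoter windows overlapped, and rho was -0.06. The interval of the difference excluded 0 in 26 of these, with the antisense RNA higher in 15 and lower in 11. Over all 339 pairs it excluded 0 in 146 (43.1%).

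**Figure D4:**
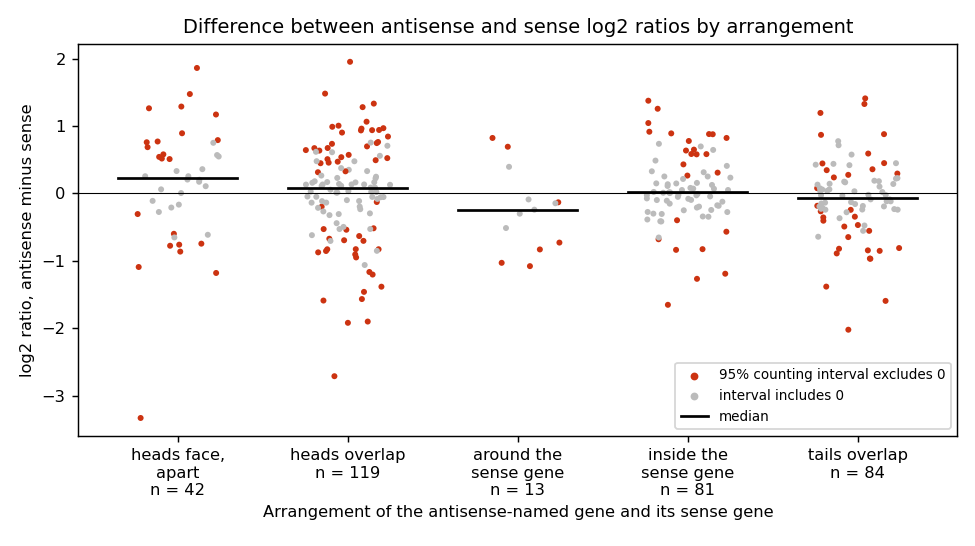
Antisense minus sense log2 ratio (vertical axis) for 339 pairs by the arrangement of the genes (horizontal axis); red points have a 95% counting interval that excludes 0, grey points one that includes it, and bars are medians. The points spread from -3.33 to 1.96, and the 42 pairs whose heads face each other apart hold the lowest, CAPN10-AS1.

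The 4 pairs whose promoters are printed above differed as follows. CAPN10-AS1 stood below CAPN10 by 3.33 on the log2 scale (interval of the difference -4.73 to -2.26). Their starts lay 17 bases apart in the count table and 418 bases apart in RefSeq, on which the printed windows rest. CEBPA-AS1 held 405 IP and 444 Input reads, which gave a log2 ratio of -0.12, while CEBPA, a transcription factor of hepatocyte differentiation, had 2148 and 1039 reads and was called higher at 1.06. The difference was -1.18 (-1.41 to -0.95). SCAMP1-AS1 had 70 and 40 reads at 0.81 (0.24 to 1.42), and SCAMP1, of a secretory carrier membrane protein, had 279 and 584 reads at -1.05 (-1.26 to -0.84). Here the antisense RNA was the higher one by 1.86 (1.25 to 2.51). ZNF528-AS1 had 75 and 30 reads at 1.32 (0.71 to 2.0), and the zinc finger gene ZNF528, with 172 and 167 reads, stood at 0.06, a difference of 1.27 (0.57 to 2.02). CAPN10-AS1 and SCAMP1-AS1 were named for extreme values, and ZNF528-AS1 was chosen after its value was seen. Only CEBPA-AS1 came from a list set by name. The directions and sizes of these 4 differences therefore show nothing about such pairs in general. Over all 48 pairs with overlapping windows, the interval left out 0 with the antisense RNA higher in 15 and lower in 11.

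Wide differences were also found elsewhere. LMO7-AS1 held 80 IP and 127 Input reads, which gave a log2 ratio of -0.65, while LMO7, of a LIM domain protein at cell junctions, had 14877 and 3594 reads at 2.06. The difference was -2.71 (-3.14 to -2.30). UCHL3, with which LMO7-AS1 shares 21.6% of its bases, stood at -0.06. SVIL-AS1 had 399 and 375 reads at 0.10, and SVIL, of the actin-binding protein supervillin, had 931 and 215 at 2.12, a difference of -2.02 (-2.33 to -1.72). NRSN2-AS1, which shares no exon base with any gene, stood 1.57 below NRSN2 with 44 and 84 reads, and NR2F1-AS1 1.38 below the nuclear receptor gene NR2F1 with 189 and 338. PPP3CB-AS1 had 375 and 222 reads at 0.77, above the calcineurin gene PPP3CB at -0.57 by 1.33 (1.04 to 1.63). It shares 26.9% of its bases with USP54, which stood at 0.62. LMO7 and SVIL, both high in the IP, thus had antisense RNAs within 2-fold, while that of HMMR was called higher.

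For 6 sense genes, 2 members with a pair each can be set side by side, chosen here because they share the sense gene. WDFY3-AS1, with 84.0% of its bases in WDFY3 exons, held 32 IP and 31 Input reads, which gave a log2 ratio of 0.06 beside 0.03 for WDFY3. WDFY3-AS2 shared none and stood at -1.89, as given above. NCBP2-AS2 shared none, with 267 and 188 reads at 0.52, while NCBP2, of the cap-binding complex, stood at -0.38 and NCBP2-AS1, with 57 and 74 reads and 25.3% shared, at -0.36. At these 2 genes the member with shared bases lay nearer to the sense gene. At ARAP1 and PTOV1 the member that shared more lay farther away, with overlapping intervals of the differences. ARAP1-AS1, with 99.2% shared, differed from ARAP1 by -0.18 and ARAP1-AS2, with 10.03% shared, by 0.05. PTOV1-AS2, with 42.2% shared, differed from PTOV1 by 0.43 (0.09 to 0.78) and PTOV1-AS1, with 7.68% shared, by 0.23 (-0.14 to 0.60). PAXIP1-AS1, which shared none, differed from PAXIP1 by 0.26 (-0.40 to 0.92) and PAXIP1-AS2, with 14.9% shared, by 0.03 (-0.39 to 0.45). ST7-AS2, with 3.87% shared, differed from ST7 by -0.41 (-1.05 to 0.19) and ST7-AS1, with 24.03% shared, by 0.27 (-0.58 to 1.09). These 6 genes thus gave no single order of distance by shared bases.

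Lists of antisense RNAs, set by name and not complete for their kind, were counted as well. A list of 51 antisense RNAs of transcription factor genes held 14 members. Of these, 1 was called higher and 0 lower, with a median log2 ratio of -0.40, and 10 lay below the median of all genes. The most read were CEBPA-AS1 and PROX1-AS1, the second with 385 and 454 reads at -0.22 beside -0.55 for PROX1, a factor of liver development. The member of the list called higher was FOXD2-AS1, also chosen after its value was seen, with 38 and 16 reads at 1.23. Off the list, CEBPB-AS1 at 1.67 and DLX6-AS1 at -1.07 are also antisense to transcription factor genes. Both were chosen after their values were seen.

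A list of 38 antisense RNAs of genes for RNA processing and translation held 14 members. Of these, 0 were called in either direction, and the median was 0.23. Off the list, INTS6-AS1 stood at -1.31 and MRPL23-AS1 at 1.60, both chosen after their values were seen. NOP14-AS1 had 2585 and 1981 reads at 0.40 (0.31 to 0.48), beside 0.16 for the ribosome assembly gene NOP14. WAC-AS1 had 526 and 853 reads at -0.68 (-0.84 to -0.53) beside -0.49 for WAC. Of 13 members with a zinc finger name (such as ZNF, ZBTB or ZFP), 1 was called higher, ZNF528-AS1, and 0 lower, with a median of 0.28. ZNF337-AS1 had 337 and 411 reads at -0.27, and ZFPM2-AS1 205 and 296 at -0.52. A list of 60 antisense-named RNAs known from studies of tumour cell lines held 39 members. Of these, 2 were higher (FOXD2-AS1 and VPS9D1-AS1) and 2 lower (CERS6-AS1 and WDFY3-AS2), with a median of -0.17. FGD5-AS1, the most read lncRNA of this list after LRRC75A-AS1, had 1938 and 3042 reads at -0.64 (-0.72 to -0.56), while FGD5 had 6 and 1 reads.

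RefSeq matched 299 of the 365 names by symbol and 57 by an older symbol, and 9 did not match. C6orf47-AS1, ARAP1-AS1 and ARMCX3-AS1, described above, were among those without a match. A symbol with -DT, for a divergent transcript, has replaced the name of 35 members. RefSeq lists 347 as lncRNA, 2 as antisense RNA, 2 as transcribed pseudogenes and 5 under a protein-coding gene, namely NCBP2-AS2, MMP24-AS1, SPTY2D1-AS1, TNRC6C-AS1 and TOPORS-AS1. The word noncoding therefore does not hold for every member. With the 351 members listed as lncRNA, antisense RNA or transcribed pseudogene alone, 17 were called higher and 20 lower.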

How the data were processed

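RNA immunoprecipitation and sequencing gave 1 ZMAT2 IP and 1 Input library of HUH7 cells. The deposited table holds counts per gene, whole numbers whose totals differ between libraries, as raw counts do. Per the file headers it has 1 column of counts for each library. Its Length column, merged exon length in bases, and the exon coordinates are the authors' own, per the file headers. Per the submitters' processing notes, fastp 0.23.4, STAR 2.5.3a and edgeR 3.12.1 were used, with build GRCh38. For the counting tool, its strand setting and the annotation release, the source text is silent (not given in the sources used here).

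TMM factors came from edgeR 4.0.16 (R 4.3.3) over 17915 genes with at least 20 reads. Ratios used a prior count of 0.5, and intervals are exact (Clopper-Pearson) 95% counting intervals, which leave out all but counting error. Differences within a pair have an exact conditional interval of the odds ratio (SciPy 1.17.1). The quasi-likelihood test needs replicates and was not run, and no p-value is given. On counts simulated for 17915 genes with counting (Poisson) error alone, 99.5% of 200 genes changed 4-fold were recovered, and 66 unchanged genes were called, 8 of them among 15247 with at least 50 reads. Exon overlaps were computed from the deposited coordinates.

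Genes named were the 8 members with the most reads, the 6 and 6 with the highest lower and lowest upper bounds, the 6 sharing most bases with the sense gene, the 4 and 4 widest differences (at least 100 reads) and 2 from each list, with their sense genes. Others are marked, and some that the rule names are not reported here. No deposited column of another sample was used (0 present). The members and lists were chosen with earlier results of these data known.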

Additional observations from a re-analysis of the deposited data

How the results depend on the processing

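Without a replicate, no library can be left out, and no paired analysis was possible because each group held 1 library. Depth limits most members, as 89 of 365 had under 100 reads. Scaling moved the counts of called members by less than 1.5 times, with 16 to 20 called higher and 21 to 26 lower, and a prior count of 2 or intervals on pairs of reads gave 19 higher and 20 lower. Library totals lowered the median of all genes by 0.10 and moved that of members to -0.14. They also turned the split of all calls to 748 higher and 1041 lower, and brought NRSN2-AS1 past 2-fold at -1.02. A minimum of 20 reads gave 34 higher and 46 lower of 489, where 7.41% and 6.97% of all genes were called. There the share of antisense-named rows called lower lay above that of all genes. A minimum of 200 gave 10 and 6 of 199, against 5.08% and 3.27% of all genes, and one of 1000 gave 2 and 2 of 40, against 4.56% and 2.71%, with a median of 0.17. Fewer members were tested at the higher minimums. The 54 members without a shared exon base held 2 higher and 4 lower, with a median of -0.14. The 101 with under 5% shared held 3 higher and 9 lower, with a median of -0.22 and a median difference from the sense gene of -0.15. Over all genes, whatever their shared bases, 6.54% were called higher and 5.04% lower. Over the 252 other RefSeq lncRNA these shares were 2.78% and 9.13%, with a median of -0.15. The shares for all genes with as few shared bases were not computed. The cause of the shifts in members was not tested. The median difference from the sense gene stayed between -0.03 and 0.07 under the other settings. With at least 200 reads in each gene, rho was 0.21 without shared bases in place of -0.11 and 0.86 with over 25 to 50% in place of 0.62. With pairs that overlap no other gene than the sense gene, rho moved by less than 0.1 in every class. The settings for rho were chosen after seeing the data.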

Other observations

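Gene structure gave further values across members, as descriptions of these libraries. Gene span and the log2 ratio correlated at rho -0.29 over the 365 members and at -0.17 over all 15421 genes with at least 50 reads. The value was -0.25 for the number of exon blocks, against 0.03 over all genes, and -0.17 for exon length, against -0.06. The members had a median of 4 exon blocks and 2509 exon bases, and all genes 9 blocks and 4344 bases. The part of each measure was not tested. Chromosome 3 held the most members, with 49, and chromosome 18 the fewest of the chromosomes that held any, with 4. Per length, 244 of 339 members stood below their sense gene over both libraries, and the median level was 46.5% of that of the sense gene.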
